A study of Mus musculus with 4 samples.

Results

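The 10 genes described here are Cd36, Slc27a1, Slc27a2, Slc27a3, Slc27a4, Fabp3, Fabp4, Fabp5, Lpl and Angptl4, which act in the uptake and binding of fatty acids. They were chosen by name, and every probe annotated to one of them was taken, which gave 18 probes of 41174 on the array and 10 of the 21392 genes tested. No RefSeq transcript accession placed any of the 18 probes outside the 10 genes. The probe used for Cd36, the Fabp5 probe, 1 Slc27a1 probe and 2 Slc27a2 probes carry accessions of other sources. Their gene names therefore had no such check. RNA came from CD45- cells, cells without the leukocyte surface marker CD45, of lymph nodes of wild-type C57BL/6NCrl mice. The mesenteric lymph node (mLN), the draining node of the gut, was set against the peripheral lymph node (pLN), with 2 samples of each. Each of 2 independent experiments supplied 1 mLN and 1 pLN sample, so mLN 1 is paired with pLN 1 and mLN 2 with pLN 2. The design text calls the cells stem cells, the title speaks of stromal cells and the protocol writes SCs, so the sources do not give 1 identity for them. The labels state neither the age or sex of the mice, nor how many animals went into a sample, nor which peripheral nodes were taken. The nodes were digested with collagenase at 1 mg/ml for 30 min at 37 degrees and the cells isolated magnetically, with a stated mean purity of 97.4% ± 2.0 for mLN and 97.5% ± 2.2 for pLN. The comparison asks how the CD45- cells of mLN differ from those of pLN.

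Long-chain fatty acids reach cells bound to albumin or inside triglyceride-rich lipoproteins. Lipoprotein lipase (Lpl) at the capillary wall releases fatty acids from triglyceride, and Angptl4 inhibits it. At the cell membrane Cd36 and the fatty acid transport proteins (the Slc27a family, several of which also join the fatty acid to coenzyme A) promote uptake, and inside the cell the fatty acid binding proteins (the Fabp family) carry the lipid. In many organs capillary endothelial cells hold Cd36 and Fabp4, and both genes, with Lpl, are also high in adipocytes and macrophages.

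Signals are given as multiples of the 75th percentile of the array, so 1 means a probe as bright as that percentile. A multiple compares arrays for 1 probe and does not compare different probes. The 75th percentile itself was 1741 (mLN 1), 1730 (mLN 2), 1734 (pLN 1) and 1686 (pLN 2) intensity units. The share of probes well above background was 81.1%, 74.0%, 79.7% and 77.8% in the same order. Markers fitting the sort were measured on all 4 arrays: 10 of 10 of blood endothelium, 6 of 6 of lymphatic endothelium and 8 of 8 of reticular fibroblasts, beside 9 of 10 of macrophages and other leukocytes. Markers of other tissues differed between the nodes: 6 of 6 of mesothelium passed the test and were higher in mLN (median log2 fold change 8.40), and 7 of 7 of pancreatic acinar cells were higher (median 7.56), 1 of them passing. Of 7 markers of mammary and glandular epithelium 2 passed as lower and 1 as higher in mLN. The part of these tissues in the values of the 10 genes was not tested. In such bulk samples fewer cells of a type and less RNA per cell cannot be told apart.

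All probes are 60 bases long, and their coordinates are those of the array files, on build mm8. The probes for Slc27a2 and Slc27a4 that carry the fitted values come from related genes and are shown because the result for Slc27a2 rests on 1 probe alone. The Slc27a2 probe lies at chr2:126279255-126279314 on the plus strand and the Slc27a4 probe at chr2:29637604-29637663 on the plus strand. Capitals mark the bases that are identical in their best ungapped alignment.
Slc27a2: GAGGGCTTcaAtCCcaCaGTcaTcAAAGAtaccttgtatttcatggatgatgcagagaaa
Slc27a4: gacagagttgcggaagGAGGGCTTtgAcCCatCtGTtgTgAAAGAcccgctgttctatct
Of 29 aligned bases 20 are identical, and the longest unbroken run is 8 bases. Over all pairs of probes of different genes among the 10, the longest shared run was 10 bases, between the Slc27a2 probe and the other Slc27a4 probe. No probe of another gene on the array shared a run of 20 bases with any of the 18.

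The probes for Fabp4 and Lpl that follow are shown because these genes have further probes apart from the fitted one, with nearly the same ratios. The Fabp4 probe lies at chr3:10190974-10191033 on the minus strand, and the Lpl probe at chr8:71830140-71830199 on the plus strand.
Fabp4: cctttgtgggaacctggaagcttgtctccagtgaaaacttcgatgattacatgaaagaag
Lpl: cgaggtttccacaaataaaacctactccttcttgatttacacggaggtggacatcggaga
The fitted probes of Cd36, Fabp4 and Slc27a3 cover 2433, 730 and 230 bases of the genome, so each crosses an intron. Whether a probe lies in coding sequence or an untranslated region was not annotated in the sources used here.

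Of the 10 genes, 0 passed an adjusted p of 0.05 in limma's test with Benjamini-Hochberg adjustment over all genes, against 1.05% of all genes tested (0.776% higher and 0.276% lower in mLN). Slc27a2 was not well above background in mLN and has only a bound there, and of the 9 genes measured in both nodes 0 had an unadjusted p under 0.05 in limma, against 14.7% of all genes. None of these 9 differed 2-fold or more with 1 direction in both experiments, against 4.45% of all genes (2.75% higher and 1.71% lower). The fitted difference was under 1.5-fold in size for 9 of the 10 genes, against 83.7% of all genes. Their ratio had the same sign in both experiments for 5 of 10 genes, against 62.9% of all genes. The median log2 fold change (mLN over pLN) was -0.07 over the 10 genes and -0.03 over all genes, and the median size of the change was 0.23 and 0.19. The median is the same with Slc27a2 at its bound. The samples of mLN and pLN did not overlap for 1 gene, Slc27a2, against 45.6% of all genes. Its mLN samples were the lower ones, as for 25% of all genes, and no member had them above on its fitted probe, as 20.6% of all genes did. All these counts take 1 probe a gene. On the other probes of Slc27a1 and Slc27a4 both mLN arrays lay above both pLN arrays. Their unadjusted p was 0.00934 and 0.0572 in limma's fit over probes. Slc27a2 entered only through its pLN arrays, with mLN signals not well above background. Its part in these counts of size, sign and overlap follows in part from that filter and carries no statement. The 9 others lay between -0.35 and 0.43 on the log2 scale, with adjusted p between 0.585 and 0.988 in limma. Their 95% intervals reached from -2.23 at the lowest to 1.80 at the highest, so the widest of them held differences of several-fold. With 2 arrays per node the test also missed changes on simulated arrays. The spread of each simulated gene was drawn from the distribution limma fitted over all genes, so wide spreads were included. There it called 0% of genes changed by 1 on the log2 scale and 55.2% of those changed by 2. These shares hold for the spreads and the number of changed genes simulated. Not passing the test therefore does not show that a difference of such a size is absent.

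**Figure D1:**
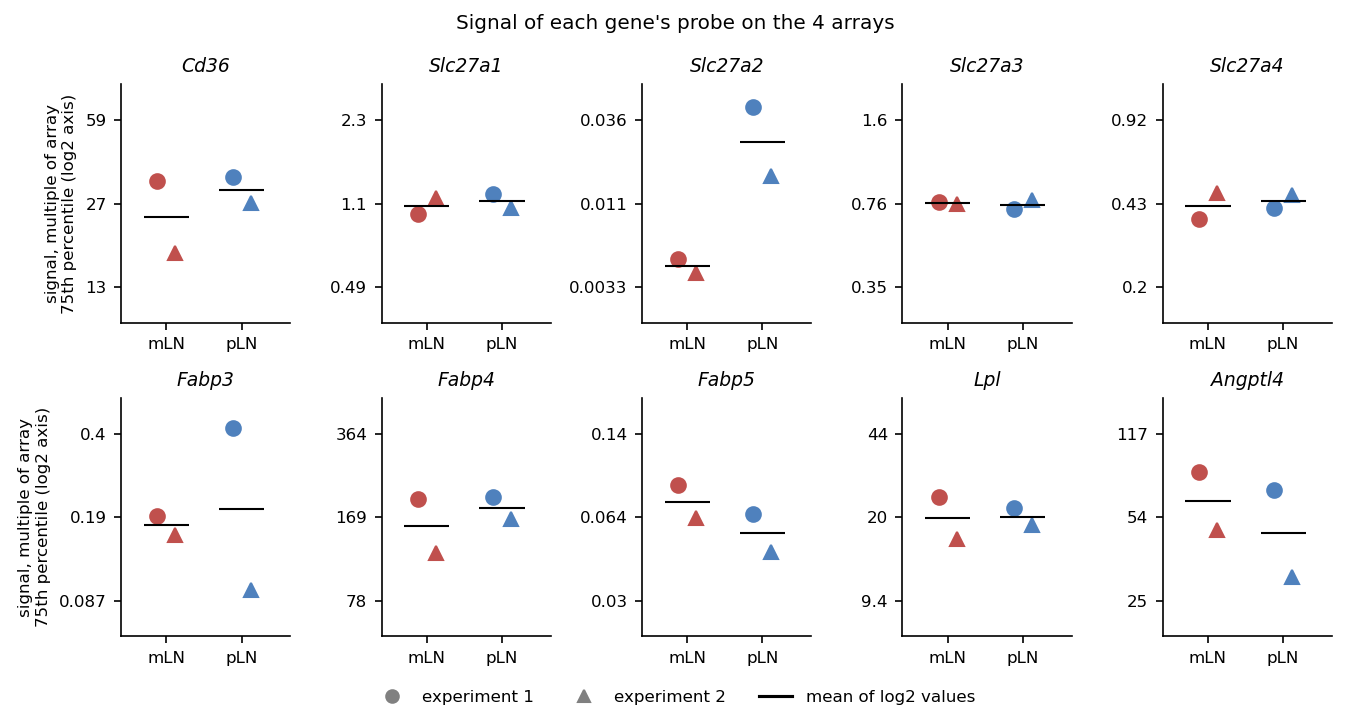
Signal of the fitted probe of each of the 10 genes on the 4 arrays, as a multiple of the 75th percentile of the array on a log2 axis, with mLN (red) left of pLN (blue), a circle for experiment 1, a triangle for experiment 2 and a line at the mean of the log2 values. The 2 nodes overlap for 9 genes, and for Slc27a2 both mLN arrays, at 0.00501 and 0.00412, lie under both pLN arrays, at 0.0438 and 0.0165. These mLN signals of Slc27a2 were not well above background. Each panel has its own scale.

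Cd36, the scavenger receptor that takes up long-chain fatty acids, had signals of 34.0 (mLN 1) and 17.4 (mLN 2), against 35.0 (pLN 1) and 27.5 (pLN 2). The low array was mLN 2, and mLN 1 lay between the pLN arrays. The ratio of mLN over pLN was 0.971 in experiment 1 and 0.630 in experiment 2. The fitted log2 fold change was -0.35 ± 0.37 (SE, n = 2 arrays per node), with a 95% interval from -1.36 to 0.65 and an adjusted p of 0.760 in limma. A second Cd36 probe gave log2 ratios of -0.07 and -0.68 in the 2 experiments, beside -0.04 and -0.67 for the fitted probe, and a fitted difference of -0.37. Without mLN replicate 2 the fitted value turned to 0.13.

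Of the fatty acid transport proteins, the fitted probes of Slc27a1, Slc27a3 and Slc27a4 overlapped between the nodes, other probes of Slc27a1 and Slc27a4 were higher in mLN, and Slc27a2 was dim. Slc27a1 (FATP1), best known from muscle and fat, had signals of 0.959 (mLN 1) and 1.11 (mLN 2), against 1.16 (pLN 1) and 1.02 (pLN 2). The nodes overlapped, and the fitted log2 fold change was -0.07 ± 0.16 (95% interval -0.51 to 0.37, limma adjusted p 0.911). The other Slc27a1 probe, at chr8:74516231-74516290 against chr8:74515346-74515405 for the fitted one, had signals of 0.716 and 0.820 in mLN, against 0.474 and 0.483 in pLN. Both mLN arrays were above both pLN arrays there, with mLN over pLN ratios of 1.51 and 1.70 in the 2 experiments. The fitted difference of that probe was 0.68 ± 0.15 on the log2 scale, with an adjusted p of 0.189 over the 31883 probes in limma. The 2 probes of Slc27a1 differ in sign, so its direction depended on the probe.

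Slc27a3 (FATP3), known mainly as an acyl-CoA synthetase, had signals of 0.774 (mLN 1) and 0.758 (mLN 2), against 0.723 (pLN 1) and 0.782 (pLN 2). Its fitted log2 fold change was 0.03 ± 0.14, with an interval from -0.35 to 0.40, the narrowest of the 10 genes. Slc27a4 (FATP4), a transporter of intestine and skin, had signals of 0.370 and 0.468 in mLN, against 0.410 and 0.461 in pLN. Its fitted log2 fold change was -0.06 ± 0.18, with a 95% interval from -0.56 to 0.43. The other Slc27a4 probe, which was dimmer, was higher in mLN in both experiments, at log2 ratios of 0.24 and 0.62 and a fitted 0.43 ± 0.17 (limma adjusted p 0.393). As for Slc27a1, the 2 probes differ in sign.

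Slc27a2 (FATP2), a very long-chain acyl-CoA synthetase of liver and kidney, was measured above background in pLN and not in mLN. Its signal was 0.00501 (mLN 1) and 0.00412 (mLN 2), neither of them well above background, against 0.0438 (pLN 1) and 0.0165 (pLN 2), both well above it. Raised to the lowest signal well above background on each mLN array, the difference was a bound of at least 2.98-fold lower in mLN. The bound was 1.83-fold without pLN replicate 1 and 4.86-fold without pLN replicate 2, and 5.91-fold in experiment 1 alone and 1.504-fold in experiment 2 alone. The limma fit gave it an adjusted p of 0.134, with mLN signals that were not well above background, so the size and p of that fit carry no statement here. The bound takes the pLN mean as measured, without its error, and the lowest flagged signal of each mLN array as the limit. Since the flag is not set by signal alone, the bound is not a strict one.

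Slc27a2 has 2 further probes, and neither was well above background on any of the 4 arrays, so they bear on no difference. One of them, annotated from a cDNA clone, lies on the minus strand, 43266 bases from the nearest plus-strand probe of the gene. The 3 probes together span 66520 bases of chromosome 2, while the RefSeq gene is 35220 bases long, so they cannot all lie within it.

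**Figure D2:**
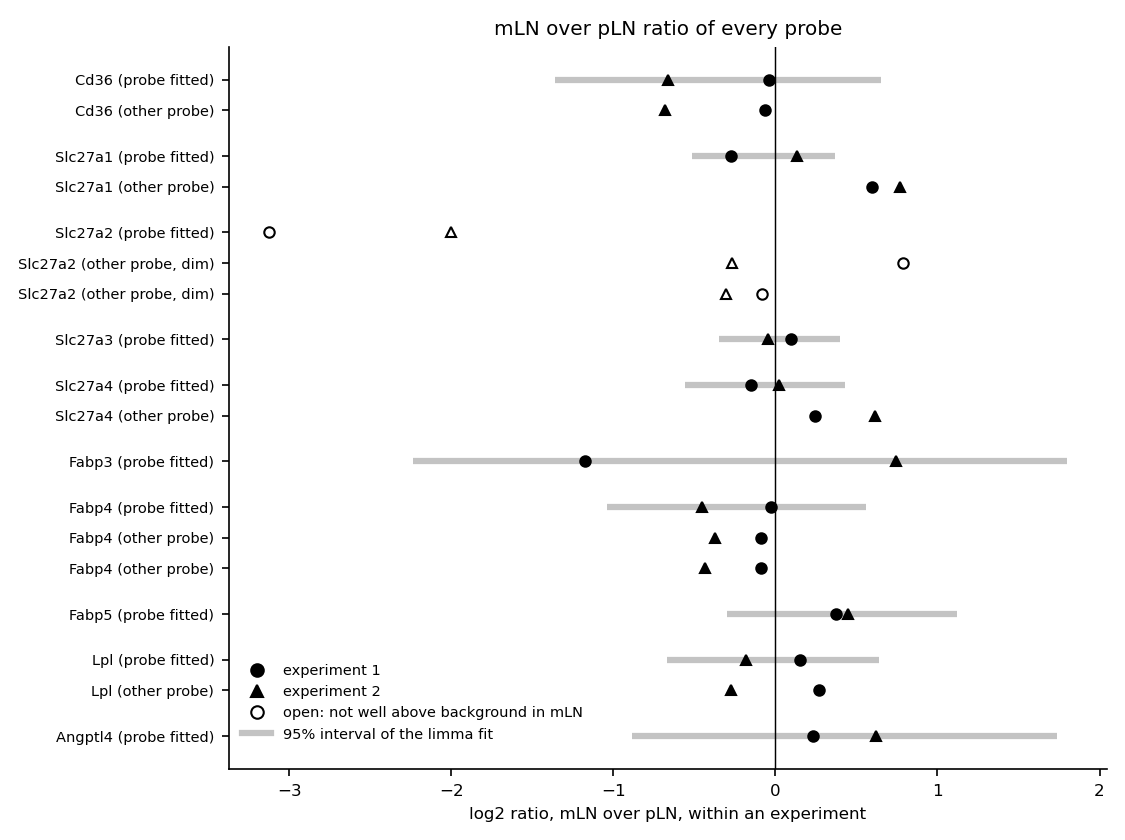
Log2 ratio of mLN over pLN within experiment 1 (circles) and experiment 2 (triangles) for all 18 probes, with open symbols for the 3 Slc27a2 probes, none of them well above background in mLN, and grey bars for the 95% interval of the limma fit of the fitted probe. Probes of Cd36, Fabp4 and Lpl lie close together, and those of Slc27a1 and Slc27a4 lie apart. No interval is drawn for Slc27a2, and its ratios are those of signals under background in mLN.

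Among the binding proteins, Fabp4, the form of adipocytes, macrophages and capillary endothelium, was bright in both nodes. Its signals were 199.8 (mLN 1) and 121 (mLN 2), against 203 (pLN 1) and 165 (pLN 2). As for Cd36, mLN 2 was the low array and mLN 1 lay between the pLN arrays. The ratio of mLN over pLN was 0.983 in experiment 1 and 0.730 in experiment 2, and the fitted log2 fold change was -0.24 ± 0.30 (95% interval -1.04 to 0.56, limma adjusted p 0.802). All 3 Fabp4 probes gave nearly the same ratios, with fitted values from -0.26 to -0.23. Without mLN replicate 2 the fitted value was 0.12.

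Fabp3, the heart and muscle form, had signals of 0.189 (mLN 1) and 0.159 (mLN 2), against 0.427 (pLN 1) and 0.0952 (pLN 2). The mLN arrays lay between the 2 pLN arrays, which differed from each other 4.48-fold. The log2 ratio was -1.18 in experiment 1 and 0.74 in experiment 2, opposite in sign. The fitted value was -0.22 ± 0.75, and its interval from -2.23 to 1.80 was the widest of the 10. Without pLN replicate 1 the fitted value was 0.87, and without pLN replicate 2 it was -1.30.

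Fabp5, the epidermal form that is also made by macrophages and endothelium, was dim but well above background on all 4 arrays. Its signals were 0.0859 (mLN 1) and 0.0634 (mLN 2), against 0.0662 (pLN 1) and 0.0464 (pLN 2). Within each experiment mLN was higher, 1.30-fold in experiment 1 and 1.36-fold in experiment 2, but mLN 2 lay under pLN 1, so the nodes overlapped. The fitted log2 fold change was 0.41 ± 0.26 (95% interval -0.30 to 1.12), with an adjusted p of 0.585 in limma, or 0.287 with the experiment as a block. The array holds 1 probe for Fabp5.

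Lpl had signals of 24.5 (mLN 1) and 16.6 (mLN 2), against 22.1 (pLN 1) and 18.8 (pLN 2). The ratio of mLN over pLN was 1.11 in experiment 1 and 0.882 in experiment 2, so the signs were opposite. The fitted log2 fold change was -0.02 ± 0.24, with a 95% interval from -0.67 to 0.64. The second Lpl probe gave a fitted value of -0.003.

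Angptl4, the secreted inhibitor of Lpl, had signals of 82.0 (mLN 1) and 48.2 (mLN 2), against 69.7 (pLN 1) and 31.3 (pLN 2). It was higher in mLN in both experiments, 1.18-fold in experiment 1 and 1.54-fold in experiment 2, and the nodes overlapped because pLN 1 lay above mLN 2. The 2 pLN arrays differed 2.23-fold from each other. The fitted log2 fold change was 0.43 ± 0.49 (95% interval -0.88 to 1.74, limma adjusted p 0.781), and it was -0.15 without pLN replicate 2.

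Of the 9 genes measured on all 4 arrays, 6 were lower in experiment 2 than in experiment 1 in both nodes, against 27.1% of all genes so measured: Cd36, Fabp3, Fabp4, Fabp5, Lpl and Angptl4. Among adipocyte markers the same held for 6 of the 7 measured on all 4 arrays. The sum of the signals of the 8 tested was 10.1 (mLN 1) and 1.60 (mLN 2), against 21.2 (pLN 1) and 4.19 (pLN 2). Cfd was the brightest of them on each array and weighs most in the sum, with 5.09 and 0.494 in mLN, against 11.1 and 2.76 in pLN. The drop from experiment 1 to experiment 2 was not particular to adipocyte markers. Of the markers tested, it held for 7 of 7 of pancreatic acinar cells, 5 of 6 of lymphatic endothelium and 5 of 10 of blood endothelium. It held for 1 of 8 of reticular fibroblasts and 0 of 7 of muscle. Adiponectin (Adipoq), secreted by adipocytes, had signals of 2.83 and 0.306 in mLN, against 2.23 and 0.464 in pLN. Ucp1, the brown adipocyte uncoupling protein, was under the well-above-background limit on both mLN arrays, against 2.56 (pLN 1) and 0.132 (pLN 2), and was at least 64.5-fold lower in mLN. That bound rested on pLN 1: it was 14.6-fold without pLN replicate 1 and 284-fold without pLN replicate 2. Cidea, a lipid droplet protein of brown fat, had 0.0824 and 0.0827 in mLN, against 3.91 and 0.319 in pLN. Plin1, Retn, Adipoq and Slc7a10, 4 of the 8 markers tested, were highest on mLN 1, and Ucp1, Cidea, Cfd and Cidec, the 4 others, on pLN 1. Lep was not well above background on both arrays of either node, and Pck1 was not found by name. By the fitted probes of the 10 genes, Cd36, Fabp3, Fabp4, Slc27a1 and Slc27a2 were highest on pLN 1. The lead over mLN 1 was small for Cd36 (35.0 against 34.0) and Fabp4 (203 against 199.8). The other Slc27a1 probe was highest on mLN 2, at 0.820. Fabp5, Lpl and Angptl4 were highest on mLN 1, Slc27a4 on mLN 2 and Slc27a3 on pLN 2. The part of adipocyte RNA in the values of these genes was not tested. The 7 tested markers of skeletal and heart muscle, tissues in which Fabp3 is high, had a median log2 fold change of 0.00, with 4 above 0 and 3 below. Their sum was 7.79 to 8.30 in mLN, against 5.17 to 5.44 in pLN, nearly all of it from Acta1, skeletal actin, with 7.96 and 7.37 in mLN, against 4.84 and 5.04 in pLN.

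**Figure D3:**
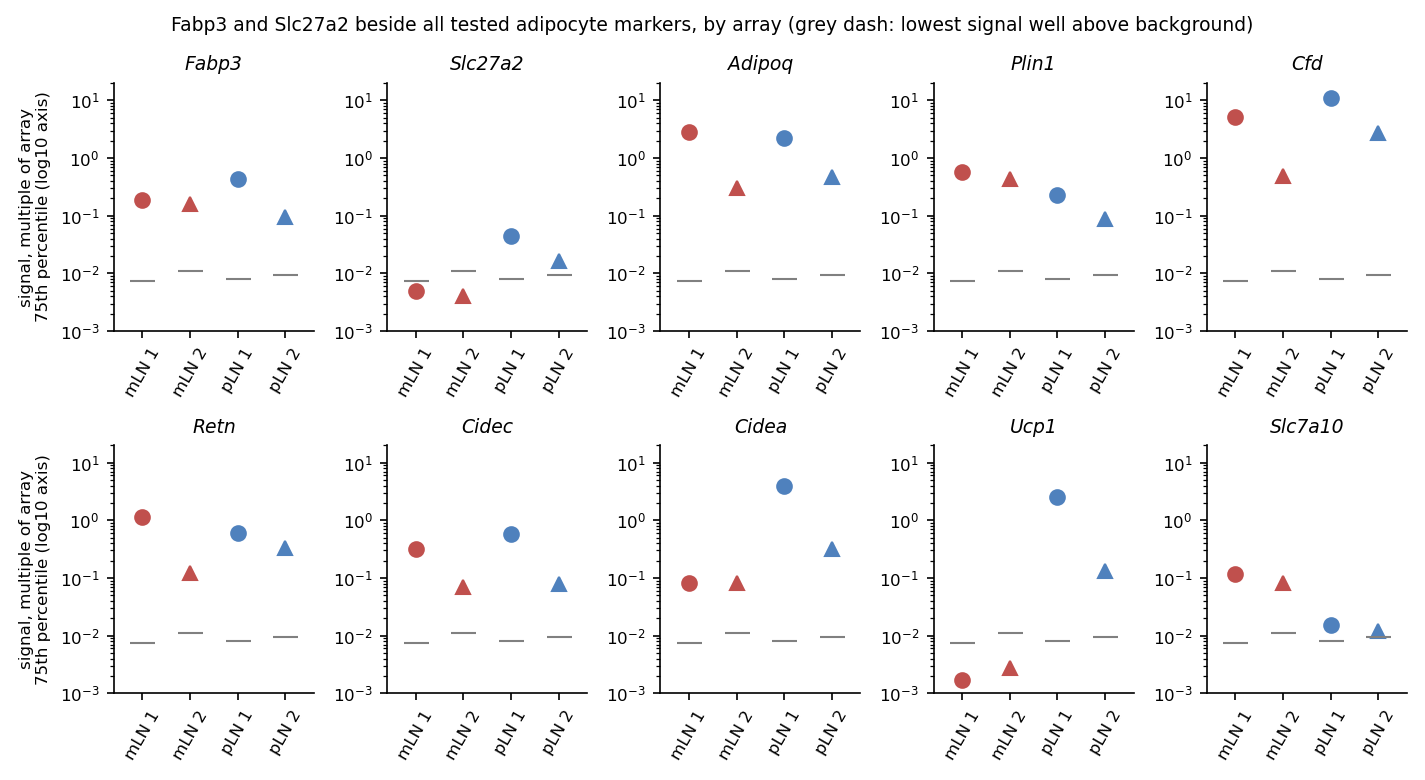
Signal of Fabp3, Slc27a2 and the 8 adipocyte markers tested on the 4 arrays, as a multiple of the 75th percentile on a log10 axis, with mLN (red) left of pLN (blue) and a grey dash at the lowest signal well above background on each array. Fabp3, Slc27a2 and 4 of the markers were highest on pLN 1, and the other 4 markers on mLN 1. The fitted probes of Cd36, Fabp4 and Slc27a1, which are not drawn here, were also highest on pLN 1. The lead over mLN 1 was small for Cd36 (35.0 against 34.0) and Fabp4 (203 against 199.8). The other Slc27a1 probe was highest on mLN 2.

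All 10 blood endothelial markers had a negative fitted difference, and 0 of them passed the test. An unadjusted p under 0.05 in limma was reached by 5 (Pecam1, Cdh5, Tie1, Emcn and Egfl7), against 14.7% of all genes in either direction. Their median log2 fold change was -0.50, against -0.03 for all genes, and it was -0.54 in experiment 1 and -0.42 in experiment 2. Their summed signal was 192 to 246 in mLN, against 309 to 323 in pLN. The brightest probe weighs most in such a sum. Here it was that of Cldn5, with 119 and 62.8 in mLN, against 144 and 137 in pLN. Cd36 and Fabp4, which capillary endothelium holds, had log2 ratios of -0.04 and -0.03 in experiment 1, above the range of these markers from -1.03 to -0.17. In experiment 2 they had -0.67 and -0.45, within the range of the markers from -1.12 to 0.01. The part of endothelial RNA in the values of both genes was not tested. The 7 tested markers of erythroid cells and platelets were also all below 0, with a median of -0.94, and 0 passed the test. Of these, 3 (Alas2, Slc4a1 and Pf4) had an unadjusted p under 0.05 in limma, against the same 14.7% of all genes. Markers of macrophages and other leukocytes had a median of 0.18, with 0 of 10 passing the test and 0 at an unadjusted p under 0.05 in limma.

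The wider set of lipid-handling genes held 1 gene that passed the test. Of 13 lipoprotein and fatty acid receptors listed, 12 were tested (Ffar3 was not found by name), and 1 fell in mLN with none rising, beside 0.276% of all genes called lower. That gene was Mfsd2a, a transporter of lysophosphatidylcholine known from brain endothelium. Its signals were 0.0653 (mLN 1) and 0.0720 (mLN 2), against 0.547 (pLN 1) and 0.445 (pLN 2), with no overlap. The fitted log2 fold change was -2.85 ± 0.17 and the limma adjusted p was 0.0155, and the part of the lower endothelial markers in it was not tested. The call ended without pLN replicate 1 (0.108), without pLN replicate 2 (0.126), with no filter on dim probes (0.0537) and with normexp background correction (0.689), and over all alternatives the adjusted p lay between 0.00571 and 0.689.

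Of the lipases and lipase partners 17 of 18 were tested, and 0 passed. At an unadjusted p under 0.05 in limma 2 were higher (Pcsk6 and Apoa4) and 2 lower (Apoc1 and the triglyceride lipase Pnpla2), against 14.7% of all genes in either direction. Pnpla2, named after its values were seen, had a fitted -0.62 ± 0.23. Their median log2 fold change was -0.01. Apoa4, an apolipoprotein of intestinal chylomicrons, had signals of 0.245 and 0.267 in mLN, against 0.0908 and 0.0650 in pLN, a fitted 1.74 ± 0.21 with an adjusted p of 0.0615 in limma. Pcsk6, a proprotein convertase, had signals of 7.96 and 3.54 in mLN, against 1.62 and 1.35 in pLN, a fitted 1.85 ± 0.43 (limma adjusted p 0.168). Apoc1, an apolipoprotein of triglyceride-rich particles, had signals of 1.87 and 2.73 in mLN, against 4.47 and 6.62 in pLN, a fitted -1.27 ± 0.30 (limma adjusted p 0.171). Of these, Apoa4 passed with median scaling (0.0438) and when the variance followed intensity (0.0340), and its adjusted p ranged from 0.0340 to 0.689.

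Among other fatty acid binding proteins 6 of 9 listed were tested and 0 passed. At an unadjusted p under 0.05 in limma 1 (Dbi) was higher, against 14.7% of all genes in either direction. Their median log2 fold change was 0.27. Fabp7, the brain form, had signals of 0.891 and 1.66 in mLN, against 0.399 and 0.809 in pLN, a fitted 1.10 ± 0.48 (limma adjusted p 0.416). Dbi, which binds acyl-CoA esters and was named after its values were seen, had a fitted 0.43 ± 0.14 (limma adjusted p 0.279). Fabp6, Pmp2 and Fabp9 were not well above background on both arrays of either node. Of other transport proteins and acyl-CoA synthetases 8 of 10 were tested, with a median of 0.03, and 0 passed, with 0 at an unadjusted p under 0.05 in limma. The 10 nuclear receptors and partners for fatty acids had a median of -0.30, and 0 passed, with 1 lower at an unadjusted p under 0.05 in limma. That gene was Pparg, the adipocyte and macrophage receptor for fatty acids, named after its values were seen, at -1.17 ± 0.40 (limma adjusted p 0.301).

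**Figure D4:**
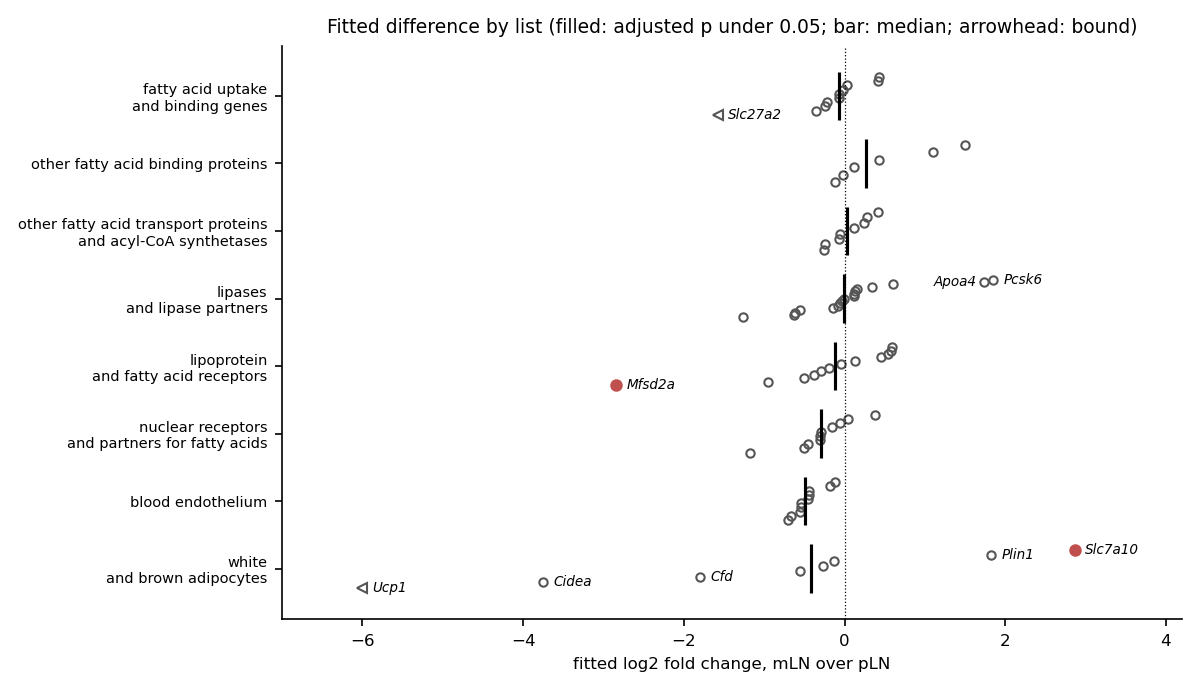
Fitted log2 fold change of mLN over pLN for every tested gene of 8 lists, 1 row a list, with a bar at the median, filled points for an adjusted p under 0.05, arrowheads at the bound for genes not well above background in mLN, and the genes farthest from 0 named. The 10 fatty acid uptake and binding genes centre on -0.07 with Slc27a2 apart, and Mfsd2a and Slc7a10 are the genes that passed.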

How the data were processed

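The deposited intensity values of 4 one-colour arrays came from Agilent Feature Extraction 9.5.3.1, a version given in the submitters' processing notes. Per the file headers, background was subtracted and trends removed from each spot's intensity, and all 4 arrays lie on 1 slide scanned once. Other columns of the deposited files hold flags of 0 or 1. Each sample started from 80 ng of RNA, labelled with 1 dye, per the labels' protocols. The deposited value table scales the same intensity to a 75th percentile of 1500, with a floor of 15, as found by comparison with the scanner signals. Its column medians are 172, 161, 169 and 167 for mLN 1, mLN 2, pLN 1 and pLN 2, on a linear scale. It served as an alternative only.

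Control spots and outlier flags were left out, spots of a probe averaged, log2 taken and the 75th percentile subtracted. A probe entered if both arrays of a node flagged it well above background, as 31883 probes did, and the brightest entering probe stood for each gene. Probes were named from RefSeq accessions (24375), symbols (6301) and synonyms (2426), and 8072 kept the file's name. Differences were tested with limma 3.58.1 in R 4.3.3 over 21392 genes, with 4.35 total degrees of freedom, Benjamini-Hochberg adjustment and a threshold of 0.05. An exact permutation of 2 against 2 arrays cannot go below 0.333. Animals are not named in the labels, so the spread behind the p-values may be partly technical. The experiment number is shared by an mLN and a pLN sample, and the deviations of experiment 2 from experiment 1 correlated across genes with r = 0.246 between the nodes, so the experiment was also fitted as a block. The procedure was tested on simulated data. The number of arrays limits the precision. For a gene not well above background in a node, the fold is a bound against the lowest signal well above background on each array. That signal is not a strict limit. Elf5, at 0.00841 on mLN 1, was not flagged well above background, though the lowest flagged signal there was 0.00741. A value after ± is the standard error, and for the purity the spread stated in the labels.

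Members, lists and tests were chosen with earlier results of these data known. All members were named, and from each pathway list those that passed and then those with a ratio of at least 2-fold in both experiments, up to 4.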

Additional observations from a re-analysis of the deposited data

How the results depend on the processing

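None of the 10 genes passed in the fits with other background correction, scaling, source of the values, filter, treatment of probes, variance model or experiment block, or with 1 array left out. With the experiment as a block, 333 genes of the array passed against 225. The block changed no call among the 10 genes. The number of genes called was 0 with normexp, 354 with median scaling, 44 with no filter on dim probes and 441 with an intensity trend in the variance. It ranged from 0 to 190 with 1 array left out, and was 0 without pLN replicate 1 and without pLN replicate 2. Higher calls were 73.8% of all calls, or 84.1% with no filter on dim probes. The median of the 10 genes was 0.14 with normexp and 0.0083 with the mean of probes, and ranged from -0.16 to 0.082 with 1 array left out. Normexp moved the median of all genes to 0.38, and relative to it the 10 genes had a median of -0.24. The sign of single genes turned with normexp for Fabp3 (0.49, or 0.11 relative to all genes), Slc27a2 (1.16, or 0.78 relative to all genes, on signals under background in mLN) and Slc27a4 (0.20, or -0.18 relative to all genes). Taken relative to all genes in both fits, the sign also turned with normexp for Angptl4 (0.46 to -0.18), Slc27a3 (0.06 to -0.31) and Lpl (0.02 to -0.74). It turned with the mean of probes for Slc27a1 (0.30) and Slc27a4 (0.18), and with another probe, a setting chosen after seeing the data, for Slc27a1 (0.68) and Slc27a4 (0.43). With 1 array left out the ranges were -0.84 to 0.13 for Cd36, -1.30 to 0.87 for Fabp3, -0.60 to 0.12 for Fabp4, -0.29 to 0.26 for Lpl, -0.15 to 1.01 for Angptl4, -0.18 to 0.037 for Slc27a1, -0.031 to 0.083 for Slc27a3 and -0.23 to 0.11 for Slc27a4. Fabp5 kept its sign there (0.16 to 0.67). The cause of these changes was not tested. Slc27a2 in mLN is limited by the signal over background.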

Other observations

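Some genes that handle lipoproteins or mark fat, named after their values were seen, differed between the nodes without passing the test. Scarb1, the receptor for high-density lipoprotein, had signals of 4.38 and 4.88 in mLN, against 7.86 and 10.1 in pLN, a fitted log2 fold change of -0.95 ± 0.19 (limma adjusted p 0.135). Vldlr, a receptor for triglyceride-rich lipoproteins, had 3.41 and 3.07 in mLN, against 2.08 and 2.25 in pLN. Its fitted log2 fold change was 0.58 ± 0.15, with an adjusted p of 0.197 in limma.

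Of the adipocyte markers 1 passed the test and was higher in mLN, Slc7a10, an amino acid transporter of white adipocytes, with 0.118 and 0.0828 in mLN, against 0.0155 and 0.0119 in pLN (2.86 ± 0.25, limma adjusted p 0.0305). Plin1, which coats the lipid droplets of adipocytes, had 0.565 and 0.441 in mLN, against 0.225 and 0.0886 in pLN, and did not pass (1.82 ± 0.49, limma adjusted p 0.212). Ucp1 and Cidea, markers of brown fat, lay the other way. So did the fitted values of Cfd (-1.80), Cidec (-0.55), Retn (-0.27) and Adipoq (-0.13). Of the 8 adipocyte markers tested, 6 were below 0 and 2 above, so the direction was not shared by the list.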
